A study of Mus musculus with 6 samples.

Results

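Motile cilia genes of airway ciliated cells were compared between the larger proximal airways of mice with and without floxed Foxp1 and Foxp4, genes for forkhead transcription factors. The group was a list of 45 genes taken by symbol, made up of regulators of the ciliated state, dynein arm subunits, radial spoke and central apparatus proteins, microtubule proteins, transport proteins and 5 other ciliated cell proteins. Of the 45 genes, 44 had a probe set that the platform annotation assigned to exactly 1 gene, among 19938 genes measured in all, and a gene with several such probe sets was represented by the brightest on average. Tubb4b, a cilia tubulin, was named only on 2 probe sets that carry other genes too and has no value here. Affymetrix arrays were run on amplified, biotin-labelled RNA from airways cut out by hand, under a microscope, from stained sections of frozen lung. The 3 control samples carried Scgb1a1-Cre alone, and the 3 mutant samples were Scgb1a1-cre:Foxp1flox/flox:Foxp4flox/flox. All mice were 9 weeks old and of a mixed C57BL/6 and 129X1 background. Both groups thus carried the recombinase, which the Scgb1a1 promoter drives in club cells and not in ciliated cells themselves, although club cells can give rise to ciliated cells. Within a group the samples carry numbers but no statement that each came from its own mouse, so the p-values reflect only sample-to-sample spread, part of which may be technical. The study's stated subject is the airway epithelium in asthma, and cilia genes were measured as part of the whole transcriptome.

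Airway ciliated cells carry many cilia that beat together and move mucus out of the lung. Each motile cilium is built on a ring of microtubule doublets around a central pair. Outer and inner dynein arms slide the doublets against each other, and radial spokes and the central apparatus control the timing of that motion. The cells first multiply their centrioles under the regulators Gmnc, Mcidas and Ccno, and the transcription factors Foxj1, Rfx2 and Rfx3 then switch on the genes of the axoneme, which intraflagellar transport carries out to the growing tip. Loss of many of these genes in people gives primary ciliary dyskinesia.

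RFX factors bind a sequence called the X-box, whose core is GTTGCC on either strand, and promoters are shown because this core was more frequent in the cilia genes than in promoters at large. RefSeq promoters of GRCm38.p6, 250 bases before to 50 after each gene's first listed start, were found for 40 of the 44 genes; Dnah3, Rsph1, Rsph4a and Tppp3 had no entry. GTTGCC, searched on both strands, stood in 25 of the 40 windows (62.5%), and in 3423 of all 27025 promoters of the same length (12.7%). GTTGCCA, which contains it, stood in 12 of the 40 (30.0%) against 4.46% of all promoters, and the forkhead core TGTTTAC in 3 of the 40 (7.5%), those of Sntn, Mlf1 and Ak7, against 3.55%. The median GC content was 55.0% for the 40 and 52.7% for all promoters. A match is only a run of letters, not a measured binding site. Printed next are the 120 bases before the start of the 4 genes whose mutant and control arrays did not overlap, and of Sntn and Deup1, which also hold the core followed by ATGG. They are read 5′ to 3′ on the gene's strand, with GTTGCC, or GGCAAC where it lies on the opposite strand, in capitals. The windows are chr4:126325689-126325808 (minus strand) for Tekt2, chr3:99885297-99885416 (plus) for Spag17, chr5:124724965-124725084 (plus) for Dnah10, chr8:95533980-95534099 (plus) for Ccdc113, chr14:13670756-13670875 (plus) for Sntn and chr9:15627847-15627966 (minus) for Deup1.
Tekt2: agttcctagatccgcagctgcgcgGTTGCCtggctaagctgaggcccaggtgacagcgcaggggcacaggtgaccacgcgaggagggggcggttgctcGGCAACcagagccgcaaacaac
Spag17: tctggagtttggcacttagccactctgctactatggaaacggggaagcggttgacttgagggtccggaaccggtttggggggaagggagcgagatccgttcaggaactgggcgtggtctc
Dnah10: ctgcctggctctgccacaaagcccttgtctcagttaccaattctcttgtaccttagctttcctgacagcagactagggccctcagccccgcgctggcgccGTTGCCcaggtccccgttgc
Ccdc113: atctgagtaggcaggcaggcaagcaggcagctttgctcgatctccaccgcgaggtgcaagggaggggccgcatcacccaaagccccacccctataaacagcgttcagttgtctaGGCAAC
Sntn: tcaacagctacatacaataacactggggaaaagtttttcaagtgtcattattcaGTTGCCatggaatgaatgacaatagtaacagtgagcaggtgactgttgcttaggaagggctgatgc
Deup1: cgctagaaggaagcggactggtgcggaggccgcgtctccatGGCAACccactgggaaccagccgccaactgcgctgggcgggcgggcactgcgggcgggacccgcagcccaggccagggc
Within the printed 120 bases, Tekt2 held the core at positions -96 and -22 from the start and Dnah10 at -20. Ccdc113 held it at -6, Sntn at -66 and Deup1 at -79, whereas Spag17 held none. In the longer searched window, from 250 bases before to 50 after the start, Dnah10 held 2. Of the 4 genes with separate groups, the core therefore stood both in genes with lower and in a gene with higher mutant values.

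The values are the deposited log2 levels, in which 1 unit is a doubling. On the 6 arrays the median over all probe sets lay between 5.89 and 5.95, the lower quartile between 4.42 and 4.50 and the upper quartile between 7.83 and 7.89. The 6 ciliated cell markers with a value, Foxj1, Tppp3, Sntn, Rsph1, Dnah5 and Ccdc113, lay above the upper quartile on 6 of 6 arrays, so transcripts of ciliated cells were measured in each sample. Foxp1 was 9.42, 9.62 and 9.55 in the controls and 9.24, 9.34 and 9.31 in the mutants (difference -0.23, adjusted p = 0.444). Foxp4 was 8.77, 9.01 and 8.95 in the controls and 8.41, 7.77 and 8.49 in the mutants (difference -0.69, adjusted p = 0.339), so the mutants were lower without overlap for both targeted genes and neither passed the test. Across all 19938 genes, 53 passed limma's test at a Benjamini-Hochberg adjusted p under 0.05.

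None of the 44 motile cilia genes passed this test (0 of 44, beside 0.266% of all genes), and the smallest adjusted p was 0.228, for Tekt2. At an unadjusted p under 0.05, 4 of the 44 (9.09%) stood out, beside 10.1% of all genes, so the share was near the background. These were 3 genes lower in the mutants (4.17% of all genes were) and 1 higher (5.90% of all genes were). The mutant mean was lower for 26 genes (59.1%, beside 45.4% of all genes) and higher for 18, with a median difference of -0.063 against 0.016 over all genes. Without mutant 2 the mutant mean was lower for 14 of the 44 (43.7% of all genes) and the median was 0.13. The groups did not overlap for 4 of the 44 (9.09%), beside 15.0% of all genes: Tekt2, Spag17 and Dnah10 were lower in every mutant (5.64% of all genes were) and Ccdc113 was higher in every mutant (9.33% of all genes were). The single differences ran from -0.99 to 0.54 with a median standard error of 0.222, against 0.117 over all genes, and the 95% interval of a difference reached 0.534 to either side at the median and 0.952 at the widest. These arrays therefore could not resolve modest differences of most cilia genes. In whole airways, fewer ciliated cells and less RNA per cell cannot be told apart.

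**Figure D1:**
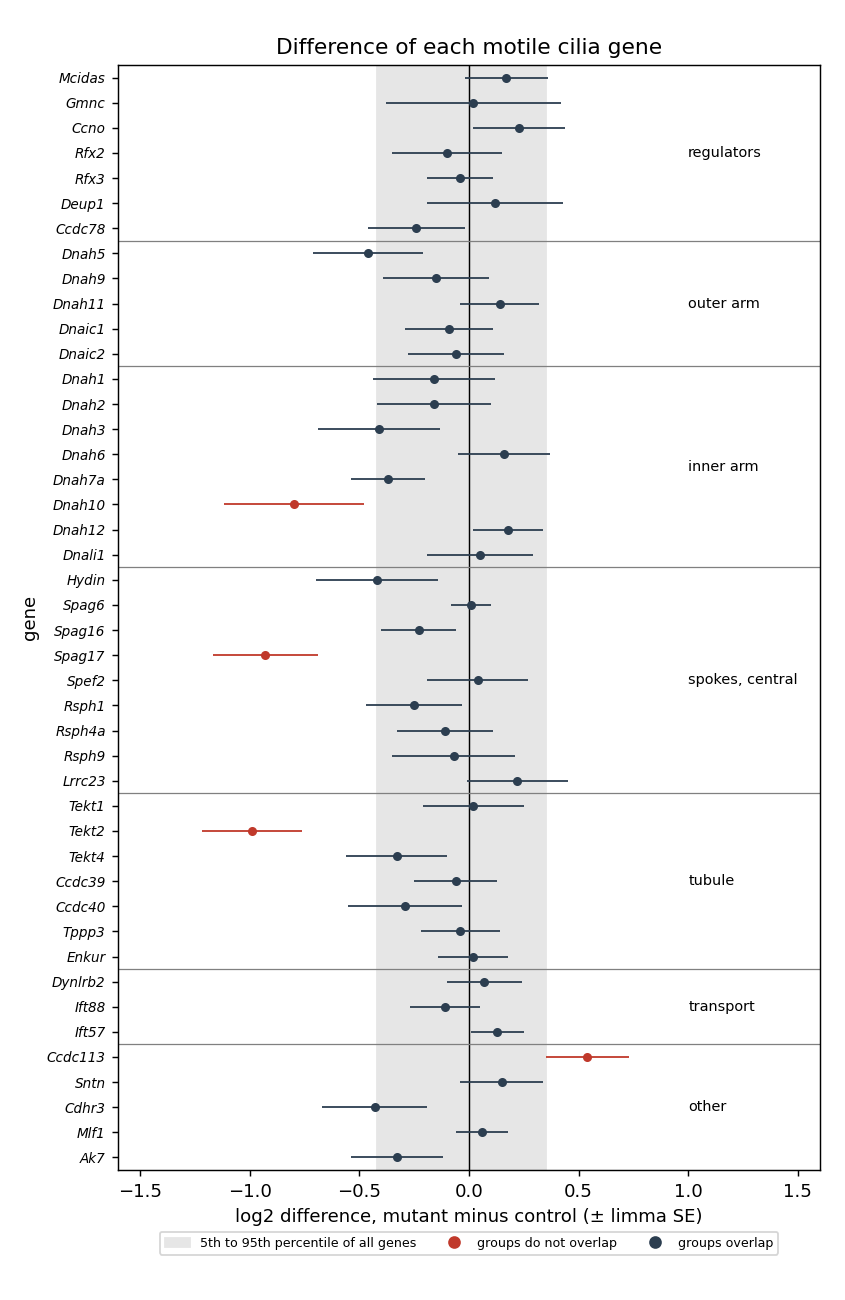
Log2 difference, mutant minus control, of the 44 motile cilia genes in their groups, with limma's standard error as bars and the 5th to 95th percentile of all genes shaded (-0.42 to 0.35). Tekt2, Spag17 and Dnah10 lie farthest to the left and Ccdc113 farthest to the right, and these 4 are the genes whose arrays did not overlap.

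The cilia genes moved together from array to array, and mutant 2 stood apart. The mean of the 44 genes was 8.57, 8.83 and 8.54 in the controls (8.65 ± 0.16, SD, n = 3) and 8.68, 8.10 and 8.80 in the mutants (8.52 ± 0.37, SD, n = 3). Mutant 2 was thus below all controls while mutants 1 and 3 lay within the control range. For 37 of the 44 genes (84.1%) mutant 2 was the lowest of the 6 arrays, beside 20.6% of all genes. For 42 it was the lowest mutant, beside 8437 of all 19938 genes. Control 2 was the highest control for 39 of the 44, beside 6561 of all 19938 genes. The median SD over the mutants was 0.408, against 0.197 over the controls. Mutant 2 minus the mean of the other mutants was -0.64 for the cilia list on the log2 scale. The same difference was -0.92 for goblet, -0.78 for basal, -0.47 for general epithelial, -0.39 for smooth muscle, -0.24 for cartilage and -0.16 for club cell genes. Above 0, it was 1.93 for cardiac muscle, 1.74 for B and plasma cell, 0.84 for adipocyte, 0.69 for T and NK cell and 0.15 for alveolar type 2 genes. Control 1, like mutant 2 high in cardiac genes (10.91, against 8.49 and 9.21 in the other controls), had a cilia mean near that of control 3. The part of tissue composition in the cilia values was not tested.

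**Figure D2:**
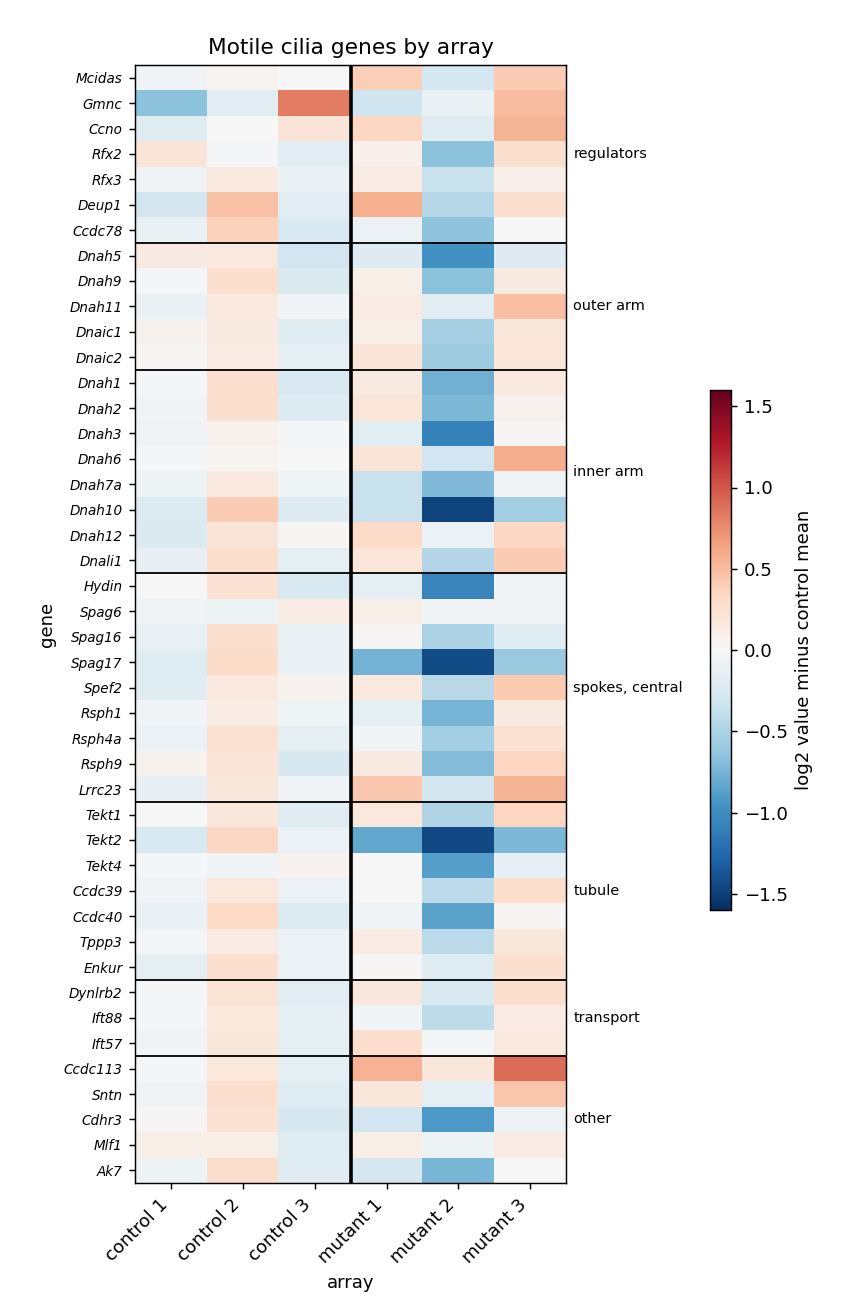
Each row is a motile cilia gene and each column an array; colour gives the log2 value minus the gene's control mean. The mutant 2 column is the lowest of the 6 for 37 of the 44 genes, while Tekt2 and Spag17 are low in all mutant columns and Ccdc113 is high in them.

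The 7 regulators and centriole genes had a mean of 7.20, 7.48 and 7.41 in the controls and 7.52, 6.98 and 7.66 in the mutants. Mutants 1 and 3 were above every control and mutant 2 below every control. Of the 7, 3 had a lower and 4 a higher mutant mean, with a median difference of 0.025. Mcidas, the coactivator that starts centriole multiplication, was 6.34, 6.44 and 6.41 in the controls and 6.78, 6.12 and 6.81 in the mutants (difference 0.17 ± 0.19, limma SE, adjusted p = 0.848). Ccno, a cyclin-like protein needed for making many centrioles, was 6.05, 6.23 and 6.44 in the controls and 6.57, 6.05 and 6.79 in the mutants (0.23 ± 0.21, adjusted p = 0.799). For both genes mutants 1 and 3 exceeded all controls and mutant 2 did not, so the groups overlapped. Gmnc, which acts before Mcidas, had the widest spread of the 7, from 6.82 to 8.30 within the controls alone, and a difference of 0.02 with an interval from -0.93 to 0.98. The transcription factors Rfx2 and Rfx3 differed by -0.10 and -0.04, Deup1, which builds the deuterosome on which new centrioles form, by 0.12, and Ccdc78, another deuterosome protein, by -0.24. Foxj1, the forkhead factor of motile cilia, which is not 1 of the 45, was 8.79, 9.08 and 8.78 in the controls and 9.04, 8.27 and 9.10 in the mutants. Its difference was -0.08 with an interval from -0.64 to 0.48 (adjusted p = 0.957), and mutant 2 was again the lowest array.

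The 5 outer arm genes averaged 8.47, 8.62 and 8.26 in the controls and 8.51, 7.86 and 8.61 in the mutants. The mutant mean was lower for 4 and higher for 1, and mutant 2 was the lowest array for 5 of 5. Dnah5, an outer arm heavy chain often mutated in primary ciliary dyskinesia, was 9.61, 9.62 and 9.15 in the controls and 9.25, 8.49 and 9.26 in the mutants. Its difference was -0.46 ± 0.25 (limma SE, adjusted p = 0.612), and mutants 1 and 3 lay between the controls' lowest and next value, so the groups overlapped. The other heavy chains, Dnah9 and Dnah11, differed by -0.15 and 0.14, and the intermediate chains Dnaic1 and Dnaic2 by -0.09 and -0.06.

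The 8 inner arm genes averaged 8.29, 8.60 and 8.28 in the controls and 8.41, 7.69 and 8.51 in the mutants, and mutant 2 stood 0.77 below the other mutants on average, the widest gap of the 7 groups. Of the 8, 5 had a lower and 3 a higher mutant mean, with a median difference of -0.16. Dnah10, an inner arm heavy chain, was 7.19, 7.82 and 7.21 in the controls and 7.05, 5.93 and 6.85 in the mutants. Every mutant was below every control; mutant 1 came close to control 1, and mutant 2 was far below the rest. The difference was -0.80 ± 0.32 (limma SE), with an interval from -1.58 to -0.02 and an adjusted p of 0.485. Without mutant 2 it was -0.46 (adjusted p = 0.508). The other heavy chains did not move as 1 block. Dnah3 was 10.34, 10.47 and 10.38 in the controls and 10.22, 9.32 and 10.42 in the mutants (difference -0.41 ± 0.28, adjusted p = 0.695), where mutant 2 alone was far from the controls. Dnah7a was 6.20, 6.44 and 6.21 in the controls and 5.92, 5.58 and 6.23 in the mutants (-0.37 ± 0.17, adjusted p = 0.551); it is close in sequence to Dnah7b and Dnah7c, so its probe set may read more than 1 gene. Dnah6 and Dnah12 leaned the other way. Dnah6 was 9.48, 9.55 and 9.50 in the controls and 9.72, 9.20 and 10.09 in the mutants (0.16 ± 0.21, adjusted p = 0.886). Dnah12 was 8.91, 9.35 and 9.16 in the controls and 9.45, 9.05 and 9.47 in the mutants (0.18 ± 0.16, adjusted p = 0.796). In both, mutants 1 and 3 were above every control and mutant 2 was not. Dnah1 and Dnah2 differed by -0.16 each, and Dnali1, an inner arm light chain, by 0.05.

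Several inner arm genes had more than 1 probe set, which are not replicates but read different stretches of a gene. All 33 probe sets of Dnah3 were lower in the mutants (from -0.88 to -0.26), with mutant 2 the lowest array in all 33. Without that array 30 of the 33 were lower, with a median of -0.22. With all arrays, 12 of the 33 had every mutant below every control, and the probe set used for the gene was not among them. The share of all genes, 5.64%, is not like for like, because the 33 read 1 gene on the same arrays. The 5 probe sets of Dnah10 ran from -0.96 to -0.48, with mutant 2 the lowest array in all 5. Of the 5, 4 had every mutant below every control, again not like for like with the 5.64% of all genes. Without mutant 2 all 5 were lower, with a median of -0.34. The 3 of Dnah6 were all higher (0.16 to 0.22), whereas the 2 of Dnah12 differed in sign (-0.054 and 0.18). Of 22 probe sets of Spef2, a central apparatus gene, 20 were lower, with a median of -0.21, while the brightest, used here, gave 0.036. Mutant 2 was the lowest array in 21 of the 22. Without it, 10 of the 22 were lower and the median was 0.028. The value of Spef2 therefore depended on which stretch was read and on mutant 2.

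**Figure D3:**
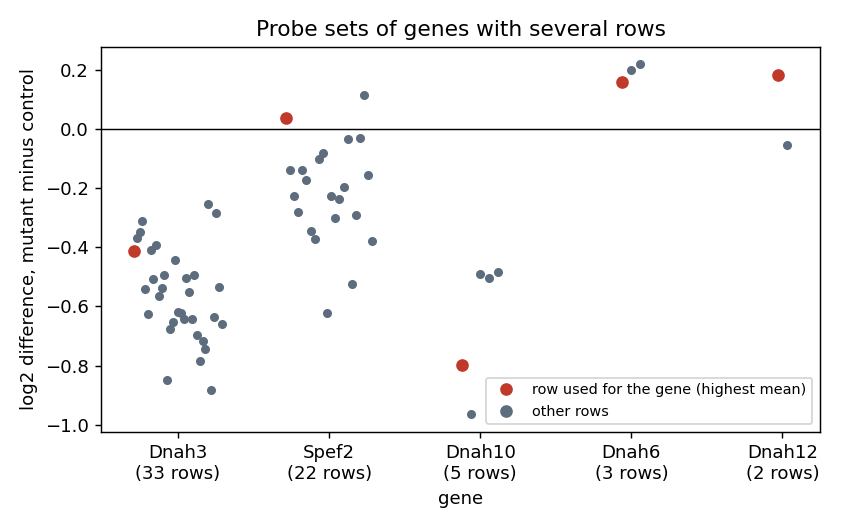
Log2 difference, mutant minus control, of every probe set that names only Dnah3, Spef2, Dnah10, Dnah6 or Dnah12, with the probe set used for the gene marked. All 33 probe sets of Dnah3 and all 5 of Dnah10 lie below 0, those of Dnah6 lie above it, and those of Spef2 and Dnah12 lie on both sides.

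The 9 spoke and central apparatus genes averaged 8.50, 8.77 and 8.50 in the controls and 8.56, 7.95 and 8.68 in the mutants. The mutant mean was lower for 6 and higher for 3, with a median difference of -0.11. Spag17, a large protein of the central apparatus (probe set 10494684), was 8.17, 8.65 and 8.25 in the controls and 7.60, 6.93 and 7.77 in the mutants. All mutants lay below all controls, mutants 1 and 3 as well as mutant 2. The difference was -0.93 ± 0.24 (limma SE), 1.90-fold lower, with an interval from -1.51 to -0.34, an unadjusted p of 0.00757 and an adjusted p of 0.289. Without mutant 2 it was -0.68 (adjusted p = 0.274). Hydin, another central apparatus protein, was 9.22, 9.45 and 8.98 in the controls and 9.07, 8.16 and 9.17 in the mutants (-0.42 ± 0.28, adjusted p = 0.698), so mutants 1 and 3 lay inside the control range. Lrrc23, a spoke protein, was 9.89, 10.20 and 9.97 in the controls and 10.45, 9.72 and 10.56 in the mutants (0.22 ± 0.23, adjusted p = 0.837), with mutants 1 and 3 above every control. The spoke head genes Rsph1, Rsph4a and Rsph9 differed by -0.25, -0.11 and -0.07, and the central apparatus genes Spag16 and Spef2 by -0.23 and 0.04. Spag6 stayed near the arrays' lower quartile, between 4.48 and 4.68, a level at which these values carry little information.

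The 7 tubule and ruler genes averaged 9.01, 9.29 and 8.99 in the controls and 9.02, 8.43 and 9.13 in the mutants. The mutant mean was lower for 5 and higher for 2, and mutant 2 was the lowest array for 7 of 7. Tekt2, a tektin that lines the inside of the microtubule doublets (probe set 10516335), was 7.53, 8.10 and 7.67 in the controls and 6.94, 6.33 and 7.05 in the mutants. The highest mutant was below the lowest control. The difference was -0.99 ± 0.23 (limma SE), 1.99-fold lower, with an interval from -1.55 to -0.44, an unadjusted p of 0.00427 and an adjusted p of 0.228. Without mutant 2 it was -0.77 (adjusted p = 0.268). The other tektins differed less. Tekt1 differed by 0.02 and Tekt4 by -0.33, the latter with controls of 8.60, 8.59 and 8.69 and mutants of 8.62, 7.75 and 8.50. Ccdc39 and Ccdc40, which together form the ruler that spaces the inner arms and spokes, differed by -0.06 and -0.29. Tppp3, a tubulin-binding protein, differed by -0.04 and Enkur, a protein inside the doublets, by 0.02.

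Among the 3 intraflagellar transport genes, Dynlrb2, a light chain of the transport dynein, differed by 0.07, Ift88 by -0.11 and Ift57 by 0.13. Their mean was 9.65, 9.88 and 9.53 in the controls and 9.82, 9.46 and 9.87 in the mutants, and the gap of mutant 2 to the other mutants, 0.39 lower on average, was the narrowest of the 7 groups.

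Ccdc113, a coiled-coil protein of the cilium (probe set 10574365), was the only 1 of the 44 genes that was higher in every mutant. It was 9.38, 9.58 and 9.27 in the controls and 9.97, 9.59 and 10.30 in the mutants. Mutant 2 barely exceeded control 2, while mutants 1 and 3 were well above all controls. The difference was 0.54 ± 0.19 (limma SE), 1.46-fold higher, with an interval from 0.08 to 1.00, an unadjusted p of 0.0269 and an adjusted p of 0.428. Without mutant 2 it was 0.73 (adjusted p = 0.22). Cdhr3, a cadherin of ciliated cells that serves as a receptor for rhinovirus C in people, was 10.38, 10.59 and 10.10 in the controls and 10.07, 9.44 and 10.27 in the mutants (-0.43 ± 0.24, adjusted p = 0.617), with overlap. Sntn, which encodes the ciliary tip protein sentan, differed by 0.15, Mlf1 by 0.06 and Ak7, an adenylate kinase, by -0.33.

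To see how single genes stood within the cilia programme of each array, the mean of the 44 genes was subtracted from each value, a comparison added after the data were seen. On this scale Tekt2 was -1.04, -0.72 and -0.87 in the controls and -1.74, -1.76 and -1.75 in the mutants. Spag17 was -0.39, -0.17 and -0.29 in the controls and -1.08, -1.17 and -1.03 in the mutants. Mutant 2 no longer stood apart for either gene: it was as far below the controls as mutants 1 and 3. Dnah10 was -1.38, -1.0 and -1.33 in the controls and -1.63, -2.17 and -1.95 in the mutants, and Ccdc113 0.81, 0.76 and 0.72 in the controls and 1.29, 1.49 and 1.50 in the mutants. The relative differences of the 4 genes were -0.87, -0.81, -0.68 and 0.66. The median SD of a cilia gene over the 6 arrays was 0.316 as deposited and 0.166 on this scale. The groups did not overlap for 17 of the 44 genes (9 lower and 8 higher in the mutants), beside 6.35% of all genes, but the subtraction takes out the arrays' common movement from cilia genes and adds it to others, so the 2 shares are not like for like. In limma with each array centred this way, 0 of the 44 passed (1.28% of all genes did) and 4 had an unadjusted p under 0.05 (4.39% of all genes did), and the adjusted p was 0.265 for Tekt2 and 0.422 for Spag17. A difference relative to the other cilia genes shows unequal change and not which gene changed.

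**Figure D4:**
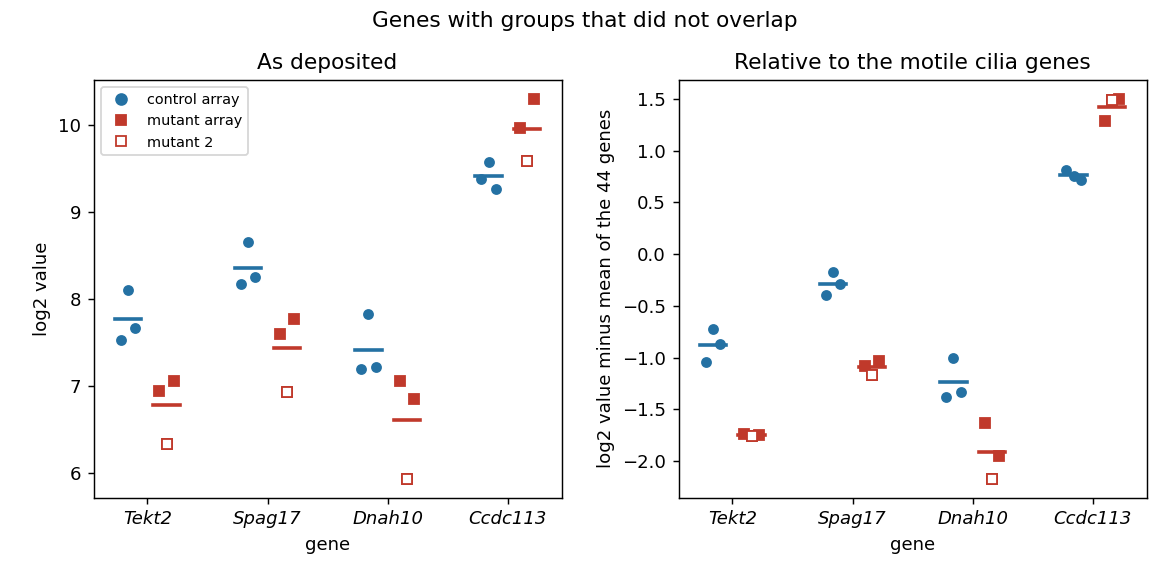
Log2 values of Tekt2, Spag17, Dnah10 and Ccdc113 on each array, as deposited and after the mean of the 44 cilia genes on that array was subtracted; points are single arrays and lines group means. After subtraction the 3 mutant values of Tekt2 lie between -1.76 and -1.74, below controls of -1.04 to -0.72.

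The other genes of the motile cilium, 101 measured genes in 7 lists, had 0 members past limma's test (0.266% of all genes passed), with a smallest adjusted p of 0.396. An unadjusted p under 0.05 was found for 4 of the 101 (3.96%), below the 10.1% of all genes. The mutant mean was lower for 51 and higher for 50, with a median of -0.0021. Mutant 2 was the lowest array for 62 (61.4%), beside 20.6% of all genes. The smallest p-values belonged to Dnah7b, an inner arm heavy chain close to Dnah7a (-0.43, adjusted p = 0.396), Mns1, a protein inside the doublets (-0.62, 0.413), Kif3a, a transport kinesin (0.26, 0.471), and Ruvbl1, which helps assemble dynein arms (-0.29, 0.489). Next were Armc4, an outer arm docking protein (-0.41, adjusted p = 0.524), Efhc2 (-0.33, 0.536), Sass6, which sets the centriole's symmetry (0.39, 0.542), and Cep97 (-0.22, 0.564). Dnah7b had 2 probe sets, and with their mean its difference was -0.1 (limma adjusted p = 0.78). The value of Dnah7b therefore depended on which probe set was read. The groups did not overlap for 6 of the 101 (5.94%), 4 lower and 2 higher, a share below the 15.0% of all genes.

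To compare cilia genes with the epithelium at large, the cilia mean was also set against the mean of 24 general epithelial genes on the same array. Cilia minus epithelium was -0.32, -0.26 and -0.28 in the controls (-0.29 ± 0.03, SD, n = 3) and -0.54, -0.66 and -0.45 in the mutants (-0.55 ± 0.11, SD, n = 3). Every mutant was below every control, by 0.26 on average. The other 101 cilia genes gave -1.21, -1.21 and -1.19 in the controls and -1.43, -1.35 and -1.38 in the mutants. By role, the groups were separate for the outer arm, the inner arm, the spokes and central apparatus, the tubule proteins and transport, with differences from -0.38 to -0.11. They overlapped for the regulators (difference -0.12) and the other ciliated cell proteins (-0.15). Relative to the epithelial mean, 23 of the 44 cilia genes (52.3%) were lower in every mutant, beside 6.30% of all genes, and 1, Ccdc113, was higher in every mutant, beside 1.59%. Cilia genes and epithelial genes share the arrays' common movement, which the subtraction removes, so these shares too are not like for like.

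The same measurement can be read from the epithelial side: the epithelial mean was 8.89, 9.08 and 8.82 in the controls and 9.21, 8.76 and 9.25 in the mutants, with 19 of the 24 genes higher in the mutant mean, beside 10881 of all 19938 genes. None of the 24 passed limma's adjusted test, beside 0.266% of all genes, and 1 (4.17%) had an unadjusted p under 0.05, beside 10.1%. Club cell genes (14 genes) averaged 11.52, 11.30 and 11.18 in the controls and 11.72, 11.54 and 11.68 in the mutants, so the mutant means were higher without overlap. The single differences ran from -0.079 to 1.20 with a median of 0.20, and 12 of the 14 were above 0. For 5 of the 14 (35.7%) the groups did not overlap, beside 15.0% of all genes, and 0 passed limma's adjusted test. The list is not purely of club cells: it also holds Kdr and Chad, and Chad is counted in the cartilage list too. Scgb1a1, the club cell secretoglobin, was 12.41, 12.13 and 12.33 in the controls and 12.53, 12.58 and 12.50 in the mutants (0.25, adjusted p = 0.476). The club cell markers Cyp2f2 and Scgb3a2 differed by 0.12 and 0.10 (limma adjusted p = 0.668 and 0.77), and the groups overlapped for Scgb3a2. Goblet cell genes (9 measured) averaged 9.19, 10.43 and 9.65 in the controls and 10.20, 9.28 and 10.19 in the mutants. That mean joins opposite differences: 7 genes were higher and 2 lower, from -3.56 to 1.90, with a median of 0.60. For 4 of the 9 (44.4%) the groups did not overlap, beside 15.0% of all genes. In limma 1 of the 9 passed (adjusted p = 0.0067), beside 0.266% of all genes. A ratio of lists shows that cilia and epithelial genes did not move alike and not which of them moved. With each array centred on the epithelial genes, limma called Tekt2 (-1.14, adjusted p = 0.0125) and Spag17 (-1.07, adjusted p = 0.0196), 2 of the 44, beside 0.717% of all genes. This centring too removes movement that cilia and epithelial genes share, so the 2 shares are not like for like. That centring moved the median of all genes to -0.126, and 37 of the 44 cilia genes lay below 0 with it, beside 80.1% of all genes.

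**Figure D5:**
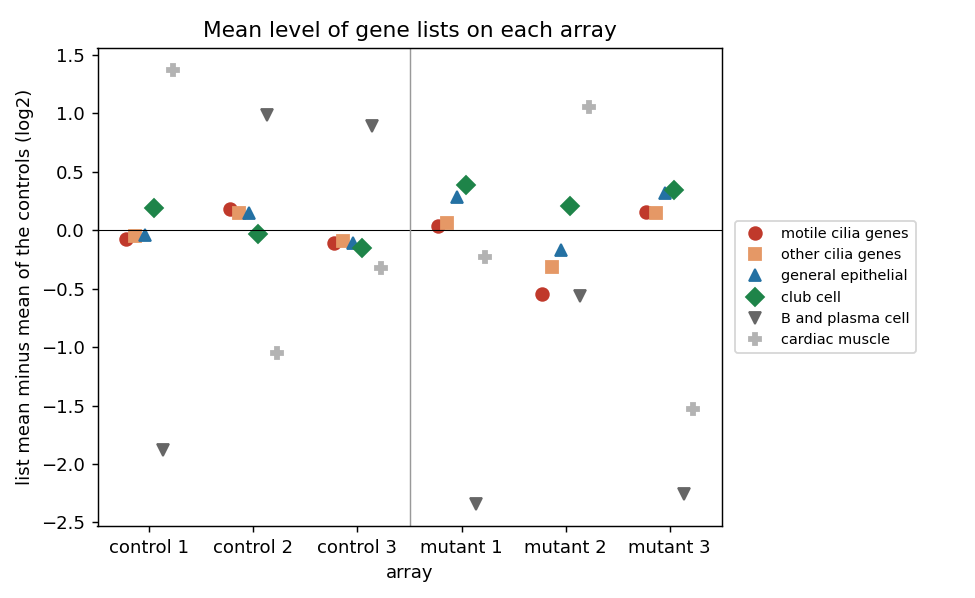
Mean log2 value of gene lists on each array, minus the mean of the controls, for the 44 motile cilia genes, 101 other cilia genes and lists of general epithelial, club, B and plasma cell and cardiac muscle genes. The cilia lists lie below the epithelial list on each mutant array and close to it on each control array, and mutant 2 has the lowest cilia mean.

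Lists of other cell types were measured beside the cilia genes, whose mean ranged from 8.10 to 8.83. Alveolar type 2 genes (10 genes) averaged 10.74, 10.65 and 10.76 in the controls and 11.06, 11.17 and 10.99 in the mutants, so every mutant was above every control. Of the 10, 6 (60.0%) had groups that did not overlap, beside 15.0% of all genes. All 6 were higher in the mutants, beside 9.33% of all genes. None passed limma's adjusted test (0.266% of all genes did), and 5 (50.0%) had an unadjusted p under 0.05, beside 10.1% of all genes. Like the mean of this list, that of the club cell list was higher in every mutant, and the means of the other lists overlapped between the groups. B and plasma cell genes (12 measured) averaged 6.35, 9.21 and 9.12 in the controls and 5.88, 7.66 and 5.97 in the mutants, and T and NK cell genes (11 measured) ranged from 5.65 to 7.09. Cardiac muscle genes ranged from 8.01 to 10.91 and adipocyte genes (9 measured) from 6.91 to 9.09, both highest on control 1. Basal cell genes (8 genes) ranged from 6.13 to 7.26, smooth muscle genes from 9.95 to 10.49 and cartilage genes from 5.47 to 6.02. The part of these cells in the cilia results was not tested.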

How the data were processed

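Expression was measured on 6 Affymetrix arrays, 3 of control and 3 of mutant airways. The deposited values are log2 levels, 1 per probe set and array, made by the authors with oligo and RMA, and limma is also named, per the submitters' processing notes; their versions and the array's genome build were not stated there. RMA brings the arrays to 1 distribution and flattens differences between dim probe sets. Scanner files and detection calls were not used here, so no level could be called above background. Precision rests on 3 arrays per group.

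Of 35556 probe sets, 21789 had 1 gene symbol, 1621 several and 12146 none, which gave 19938 genes. limma 3.58.1 (R 4.3.3; lmFit, eBayes, no filter, genotype as the only term) was run on all genes, two-sided, with Benjamini-Hochberg adjustment over all of them and a threshold of 0.05. Summaries used Python 3.11.15 and pandas 2.3.3, and figures matplotlib 3.10.9. The test was also run on simulated data with 19938 genes and 3 arrays a group. It called 83% of genes made to differ 2-fold and 98% of those made to differ 8-fold. The simulated noise was independent from gene to gene, whereas cilia genes moved together and had larger standard errors than most. These shares therefore need not hold for the cilia genes. No 2 arrays were alike: pairs correlated at 0.972 to 0.993, and pair differences had an SD of at least 0.238. Same-numbered samples did not deviate together (correlations 0.136, -0.0907 and -0.0398), so the numbers were not taken as pairs.

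The genes and lists were chosen with earlier results of these data known. All 45 genes are named; per-array values are given for the 6 most positive and 6 most negative differences, for genes whose groups did not overlap and, beyond that rule, for Dnah3, Dnah7a and Tekt4, picked after their values were seen. Of the other cilia lists, Foxj1 and the 8 genes with the smallest p are named. Alternatives were other normalisations and centrings, a filter on dim genes, the mean of a gene's probe sets, array weights, an intensity trend, the replicate number as a block, and arrays left out.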

Additional observations from a re-analysis of the deposited data

How the results depend on the processing

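In 18 settings, the reported one included, the log2 difference ran from -1.14 to -0.76 for Tekt2 and from -1.09 to -0.68 for Spag17. It ran from -1.02 to -0.46 for Dnah10 and from 0.37 to 0.77 for Ccdc113. Without the single-control fit, limma's adjusted p ran from 0.0125 to 0.548 for Tekt2 and 0.0196 to 0.648 for Spag17. It ran from 0.082 to 0.871 for Dnah10 and 0.0781 to 0.924 for Ccdc113. The signs did not turn, but these genes were singled out because their groups did not overlap. Leaving arrays out or weighting them therefore could not turn a sign. The filter, block and trend settings keep the reported difference, so most settings did not test the sign. The count of cilia genes past the test was 0 as reported, 2 with arrays centred on epithelial genes (Tekt2 and Spag17) and 1 without control 1 and mutant 2 (Tekt2, -0.89, adjusted p = 0.0425); in every other setting run it was 0. The median over the 44 genes ran from -0.22 without mutant 3 to 0.13 without mutant 2 and with array weights, and the number of genes with a lower mutant mean from 14 without mutant 2 to 37 with epithelial centring, so the sign of the group's median is not settled. The count over all genes was 53, and 143 with epithelial centring, 291 with array weights, 82 with an intensity trend, 0 without controls 2 and 3, 963 without control 1 and mutant 2, 255 with centring on the cilia genes (chosen after seeing the data), and 9 to 388 with single arrays left out. With the replicate number as a block 0 genes passed (limma; 1945 at an unadjusted p under 0.05, and 1542 without controls 2 and 3); the numbers were not taken as a pairing, and among all pairs control 3 and mutant 2 deviated most alike (correlation 0.176); the cause of these shifts was not tested. Of the 53 named genes, 25 changed sign in at least 1 of 17 alternatives, none with an adjusted p under 0.05 there. With quantile normalisation repeated the log2 difference was Spag6 -0.011. With epithelial centring the log2 difference was Gmnc -0.12, Deup1 -0.022, Dnah11 -0.0065, Dnali1 -0.097, Spag6 -0.13, Spef2 -0.11, Tekt1 -0.13, Enkur -0.12, Dynlrb2 -0.076, Ift57 -0.0096 and Mlf1 -0.087. With the mean of a gene's probe sets the log2 difference was Spef2 -0.21. With array weights the log2 difference was Gmnc -0.21, Rfx2 0.19, Rfx3 0.081, Dnah9 0.12, Dnaic1 0.15, Dnaic2 0.16, Dnah1 0.13, Dnah2 0.078, Spag6 -0.05, Rsph4a 0.12, Rsph9 0.27, Ccdc39 0.14, Tppp3 0.12, Ift88 0.074 and Foxj1 0.13. Without controls 2 and 3 the log2 difference was Rfx3 0.016, Ccdc39 0.012, Mlf1 -0.039 and Foxj1 0.014. Without control 1 and mutant 2 the log2 difference was Gmnc -0.24, Rfx2 0.28, Rfx3 0.077, Dnah9 0.10, Dnaic1 0.16, Dnaic2 0.21, Dnah1 0.13, Dnah2 0.10, Rsph4a 0.057, Rsph9 0.27, Ccdc39 0.096, Tppp3 0.14, Ift88 0.034 and Foxj1 0.14. With centring on the cilia genes the log2 difference was Rfx2 0.019, Rfx3 0.077, Dnaic1 0.033, Dnaic2 0.062, Rsph4a 0.01, Rsph9 0.054, Ccdc39 0.065, Tppp3 0.079, Ift88 0.015 and Foxj1 0.043. With single arrays left out it ran from -0.22 to 0.13 for Ccdc39, -0.10 to 0.41 for Deup1, -0.32 to 0.15 for Dnah1, -0.032 to 0.30 for Dnah11, -0.33 to 0.13 for Dnah2, -0.051 to 0.39 for Dnah6, -0.29 to 0.11 for Dnah9, -0.22 to 0.13 for Dnaic1, -0.19 to 0.20 for Dnaic2, -0.13 to 0.30 for Dnali1, -0.038 to 0.23 for Dynlrb2, -0.092 to 0.15 for Enkur, -0.22 to 0.19 for Foxj1, -0.30 to 0.44 for Gmnc, -0.22 to 0.043 for Ift88, -0.041 to 0.12 for Mlf1, -0.29 to 0.18 for Rfx2, -0.13 to 0.11 for Rfx3, -0.29 to 0.10 for Rsph4a, -0.27 to 0.24 for Rsph9, -0.033 to 0.074 for Spag6, -0.15 to 0.28 for Spef2, -0.15 to 0.26 for Tekt1 and -0.15 to 0.16 for Tppp3.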

Other observations

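Spag6l, a close copy of the central apparatus gene Spag6 and named after its values were seen, was 9.74, 10.27 and 9.63 in the controls and 9.53, 8.71 and 9.50 in the mutants. Every mutant was below every control, with a difference of -0.63 ± 0.27 (limma SE, adjusted p = 0.514). Spag6 itself was near the arrays' lower quartile.

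The X-box core GTTGCC was unevenly spread over the roles of the cilia genes. It stood in 6 of 7 promoters of regulators and centriole genes, 3 of 3 of transport genes, 5 of 7 of spoke and central apparatus genes, 4 of 6 of tubule genes and 4 of 5 of the other ciliated cell proteins. It stood in 1 of 5 outer arm and 2 of 7 inner arm promoters, and in 29 of 79 (36.7%) of the other cilia genes' promoters. The median mutant minus control difference was 0.014 for the 25 genes with the core and -0.088 for the 15 without it, and the median gap of mutant 2 to the other mutants was -0.63 and -0.75. In all, 15 spellings were searched on both strands, many of which overlap. GTTNCC stood in 34 of the 40 cilia promoters and in 45.5% of all promoters, TATTTAT in 2 of the 40 and 5.75%, and the forkhead spelling TGTTTGT in 0 of the 40 and 6.62%. The other spellings were longer X-box forms, with a second half-site or the bases between the half-sites; each stood in at most 4 of the 40, and in 0.13% to 1.29% of all promoters.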
